A study of Mus musculus with 20 samples.

Results

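Macrophages that meet interleukin-4 or interleukin-13 take on the state called alternative activation, and a small set of genes is used to recognise it. The 10 genes described here are Il4ra and Stat6, which carry the signal, the secreted products Retnla, Chil3 and Ccl24, the lectin receptors Mrc1, Mgl2 and Clec10a, the scavenger receptor Cd163 and the folate receptor Folr2. They were chosen by name, and all 10 were found among the 52783 genes of the count table by matching Ensembl identifiers to gene symbols. RNA had been sequenced from cells of 66cl4 and 67NR tumours, each grown from 1000000 cells of a mouse mammary tumour line placed in the fat pad of the mammary gland of BALB/cJ females, bought at 8 to 12 weeks of age. Tumours were taken 21 to 26 days after injection, and the dissociated cells were sorted by the leukocyte surface protein CD45. The 4 groups are 66cl4 CD45+, 67NR CD45+, 66cl4 CD45- and 67NR CD45-, each with 5 libraries from 5 animals, and 1 library of each gate came from each animal. The 66cl4 line forms metastases and the 67NR line does not. Each tumour type is a single cell line, so a difference between tumours is a difference between these lines. The CD45+ gate holds all leukocytes, and no macrophage sort was made.

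Interleukin-4 binds the receptor chain encoded by Il4ra. With its partner chain and the Janus kinases it leads to phosphorylation of STAT6, which enters the nucleus and binds palindromic sites beside its target genes. Retnla (Fizz1), Chil3 (Ym1), Mrc1 (CD206) and Arg1 are the classical targets in mouse macrophages. Tumour macrophages often carry several of these products, and in mammary tumours they have been linked to matrix remodelling and to the recruitment of other leukocytes. Cd163 and Folr2 also mark macrophages that live in tissues, and Chil3 is made by monocytes and neutrophils too, so not each of the genes belongs to macrophages alone.

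Total counts per library ranged from 12960000 to 28080314. Ptprc, which encodes CD45, exceeded its CD45- level in 10 of 10 animals, by 33.6-fold or more. In the labels of 66cl4 animals 5 and 6, title and cell type of each library contradict one another. The titles were used, and the level of Ptprc followed them. Levels of single genes are normalised counts, that is, counts divided by a size factor that evens out the depth of the 20 libraries. The macrophage identity genes Csf1r, Adgre1, Cd68, Fcgr1, Mertk, C1qa, C1qb and C1qc summed to between 33980 and 100300 normalised counts in the CD45+ libraries.

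Sequences bear on these genes in 2 ways, through the site that STAT6 recognises and through stretches shared with related genes. The RefSeq promoter table (GRCm38.p6) held 8 of the 10 genes and had no entry for Clec10a or Ccl24. STAT6 binds TTC and GAA with 4 bases of any kind between them, while other STAT proteins prefer a spacing of 3 bases. Both motifs are palindromes and so cover both strands, and a copy of the one is not a copy of the other. In the 250 bases before and 50 after each start, the motif with 4 bases was found in Retnla and that with 3 bases in Chil3, and neither in the other 6 genes. Among all 32851 promoters of the table, each of 300 bases, 6.95% hold the longer spacing and 8.3% the shorter. A match describes the letters only, and binding was not measured here. The 250 bases before the start of both secreted products are shown because they carry these matches, which stand in capitals. The Retnla stretch is chr16:48842359-48842608 on the plus strand, with the match beginning 145 bases before the start. The Chil3 stretch is chr3:106167565-106167814 on the minus strand, with the match beginning 172 bases before the start.
Retnla: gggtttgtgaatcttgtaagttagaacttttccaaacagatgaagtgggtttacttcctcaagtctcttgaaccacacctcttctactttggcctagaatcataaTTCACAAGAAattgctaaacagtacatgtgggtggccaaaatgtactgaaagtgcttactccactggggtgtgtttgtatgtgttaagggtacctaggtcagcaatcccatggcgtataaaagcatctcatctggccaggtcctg
Chil3: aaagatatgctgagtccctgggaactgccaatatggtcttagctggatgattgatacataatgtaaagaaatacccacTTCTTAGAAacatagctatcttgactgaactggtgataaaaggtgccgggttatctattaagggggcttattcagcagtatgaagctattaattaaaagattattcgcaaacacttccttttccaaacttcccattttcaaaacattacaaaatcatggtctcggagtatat

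Mgl2 and Clec10a encode the neighbouring galactose-type lectins of mouse macrophages and dendritic cells, and their coding sequences share long stretches. In the GENCODE M21 transcripts (GRCm38), 22.6% of the 31-base words of Mgl2 and 14.8% of those of Clec10a also occur in another gene, mostly in each other. The longest run shared by their coding sequences measures 183 bases and is shown in capitals with 15 bases on either side. It spans 3 exons in both genes, at chr11:70136322-70136714 for Mgl2 and at chr11:70169807-70170204 for Clec10a, on the plus strand.
Mgl2: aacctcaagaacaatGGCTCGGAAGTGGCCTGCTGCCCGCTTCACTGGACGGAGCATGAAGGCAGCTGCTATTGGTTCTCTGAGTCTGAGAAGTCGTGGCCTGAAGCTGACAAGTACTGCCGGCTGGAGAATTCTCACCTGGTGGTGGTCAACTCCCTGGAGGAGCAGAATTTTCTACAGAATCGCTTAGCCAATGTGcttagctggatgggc
Clec10a: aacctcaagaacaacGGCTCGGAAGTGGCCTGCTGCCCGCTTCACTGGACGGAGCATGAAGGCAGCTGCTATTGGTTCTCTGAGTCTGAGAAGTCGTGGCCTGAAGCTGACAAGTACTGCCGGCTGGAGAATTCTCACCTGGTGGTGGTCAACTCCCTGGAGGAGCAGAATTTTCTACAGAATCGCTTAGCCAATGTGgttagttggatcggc
A read from this run cannot be placed by its sequence, and the counting divides it between the genes. The estimated count was not whole in 18 of 20 libraries for Mgl2 and in 17 of 20 for Clec10a, lying up to 0.46 and 0.486 from a whole number, so the split between this pair is uncertain. Chil3 shares 41.5% of its 31-base words with other genes, most of them with Chil4, but Chil4 had a count of 0 in all 20 libraries. For Retnla the share was 5.45%, all of it with Retnlg, and for the other 6 genes it was below 1%.

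The central question was which of these genes differ between the leukocytes of the tumour that spreads and those of the tumour that does not. In CD45+ cells Ccl24 was higher in 66cl4 tumours, by 6.30-fold between the group means. Clec10a and Retnla were lower, by 2.15-fold and 3.54-fold, and the other 7 genes, Mrc1 among them, did not pass. A gene is called when the quasi-likelihood test of edgeR gives a Benjamini-Hochberg adjusted p-value under 0.05 and the absolute log2 fold change is over 1. By this rule 1 of 10 genes rose and 2 fell, against 11.8% of the 14676 genes tested that were called in either direction, 5.01% higher and 6.82% lower. The median log2 fold change of the 10 genes was 0.14. The libraries of the groups did not overlap for 3 of the 10, Ccl24, Clec10a and Stat6, against 15.1% of all genes tested. In bulk RNA of mixed leukocytes, fewer macrophages and less RNA of a gene in each macrophage cannot be told apart.

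**Figure D1:**
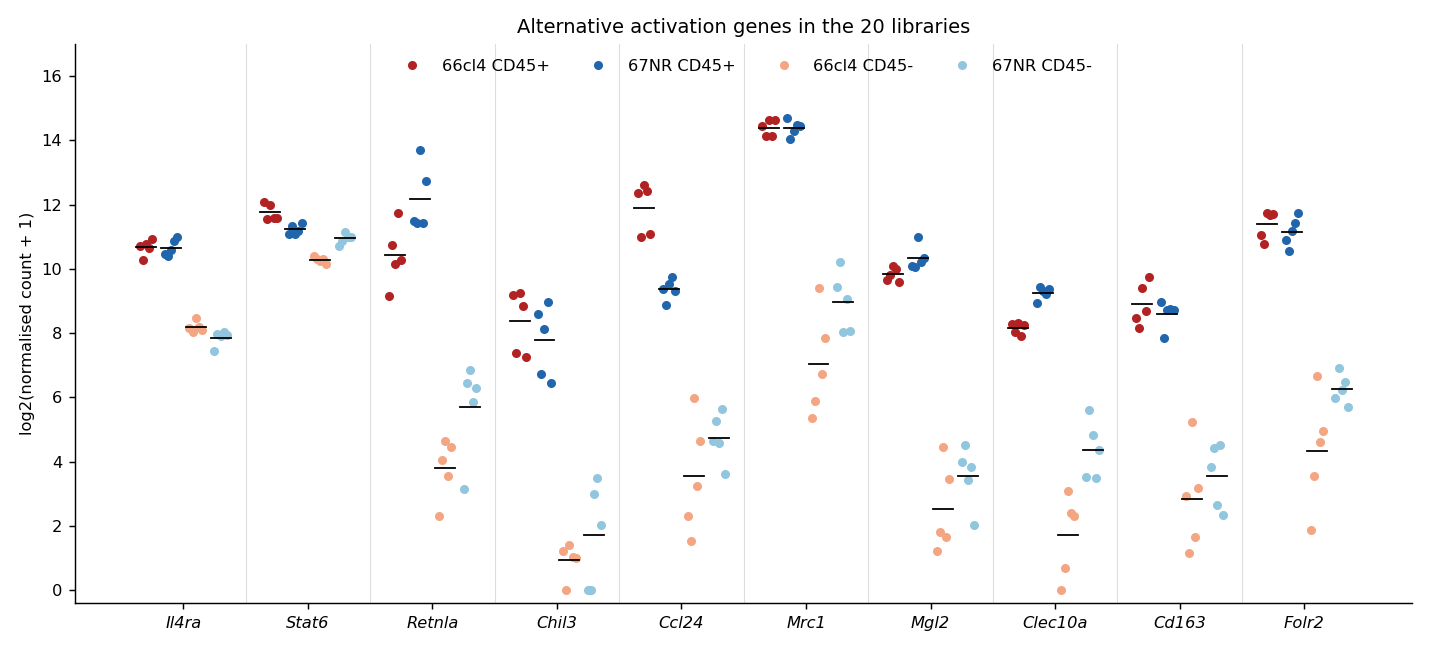
Levels of the 10 genes in the 20 libraries, as log2 of the normalised count plus 1, with a point for each library and a black line at the mean of the 5 log2 values of each group. Ccl24 separates the 66cl4 CD45+ libraries from the 67NR CD45+ libraries, Mrc1 lies at 16710 to 26760 normalised counts in both, and Stat6 is the gene whose CD45- levels come closest to its CD45+ levels.

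Ccl24 encodes eotaxin-2, a chemokine that draws eosinophils and other cells with the receptor CCR3. Its normalised counts in the 66cl4 CD45+ libraries of animals 3, 4, 5, 6 and 7 were 5245, 2044, 6241, 5527 and 2161. In the 67NR CD45+ libraries of animals 1, 4, 5, 6 and 7 they were 664.9, 472.6, 734.8, 865.2 and 628.6. The lowest 66cl4 library stood above the highest 67NR library, and 66cl4 animals 4 and 7 lay well below the other 3. The log2 fold change was 2.67 ± 0.33 (SE, n = 5 against 5, edgeR adjusted p = 0.000425). This call held in 17 of 17 other settings, at 2.23 to 2.84.

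Chil3, the chitinase-like protein Ym1, showed the same division among the 66cl4 animals. Its normalised counts were 580.0, 164.3, 610.4, 458.7 and 152.1 in 66cl4 and 384.0, 105.5, 279.5, 498.5 and 86.4 in 67NR CD45+ cells, in the same order of animals. The groups overlapped, and in each of them the highest library exceeded the lowest several times over. Its log2 fold change was 0.54 ± 0.56 (SE), with an edgeR adjusted p of 0.537. The summed neutrophil markers moved with both genes among the 66cl4 animals, at 109700, 57240, 118200, 108600 and 42460 normalised counts. So did the summed monocyte markers, at 56380, 32850, 50570, 49290 and 27780. In 67NR CD45+ cells the neutrophil markers were 49420, 26630, 16250, 14680 and 6935, an order that neither gene followed. The monocyte markers were 43850, 33550, 52510, 53330 and 47220 there. The part of these cells in the Ccl24 and Chil3 levels was not tested.

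Retnla encodes a resistin-like protein that alternatively activated macrophages secrete. It varied widely among the 67NR CD45+ libraries, with normalised counts of 2881, 2734, 13400, 2767 and 6877. In 66cl4 CD45+ cells it had 570.2, 1707, 1146, 3424 and 1248. The 66cl4 library of animal 6 lay among the 67NR values and the other 4 lay below all of them. On the log2 scale the fold change was -1.80 ± 0.57 (SE), with an edgeR adjusted p of 0.0458. This call depended on single libraries. It was lost in 7 of the 10 fits that left out a library (66cl4 animals 3, 4, 5 and 7, and 67NR animals 4, 5 and 7), with adjusted p-values of 0.0504 to 0.117. Without 67NR animal 5, the highest library, the log2 fold change was -1.21.

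The levels of Ccl24 and Retnla thus stood in opposite order in the groups. Within a library their ratio needs no scaling between libraries. There were 9.20, 1.20, 5.45, 1.61 and 1.73 normalised counts of Ccl24 for each of Retnla in the 66cl4 CD45+ libraries. The 67NR CD45+ libraries had 0.231, 0.173, 0.0548, 0.313 and 0.0914. Ccl24 exceeded Retnla in 5 of 5 libraries of 66cl4 and in 0 of 5 of 67NR, which is given as a description since this pair was picked after its values were seen.

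The lectin receptors did not move as a group. Mrc1 encodes the mannose receptor CD206, which takes up glycoproteins ending in mannose. It had 22190, 18080, 25590, 18030 and 25410 normalised counts in 66cl4 and 26760, 16710, 19970, 22980 and 22310 in 67NR CD45+ cells. The groups covered almost the same range, and the means were 21860 ± 3728 and 21750 ± 3722 (SD, n = 5 each). The log2 fold change was 0.02 ± 0.17 (SE), with an edgeR adjusted p of 0.956. Its sign changed when single libraries were left out, from -0.06 to 0.10.

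Clec10a was lower in 66cl4 CD45+ cells, with normalised counts of 310.2, 261.8, 315.3, 239.9 and 305.1 against 485.4, 695.7, 640.3, 590.7 and 663.6 in 67NR. The groups were well separated, and the spread within each was small. The log2 fold change was -1.09 ± 0.13 (SE, edgeR adjusted p = 0.000203), and the call held in 17 of 17 other settings, at -1.18 to -1.03. The scaling to macrophage identity genes, given below, is not among these settings. Mgl2, its neighbour, had 797.0, 898.2, 1092, 1020 and 773.3 in 66cl4 and 1083, 1068, 2013, 1184 and 1298 in 67NR CD45+ cells. 67NR animal 5 stood far above the other 9 libraries, and the groups overlapped. The log2 fold change of -0.52 ± 0.18 (SE) lay below the fold threshold, and the edgeR adjusted p of 0.0533 did not pass either. There were 2.53 to 4.25 counts of Mgl2 for each of Clec10a in the 66cl4 CD45+ libraries and 1.54 to 3.14 in those of 67NR, with the reservation above on how reads of this pair are divided.

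Cd163 encodes the receptor that clears complexes of haemoglobin and haptoglobin. Its normalised counts were 356.1, 287.6, 681.7, 409.3 and 866.3 in 66cl4 and 499.5, 227.5, 416.7, 427.8 and 422.8 in 67NR CD45+ cells. 66cl4 animals 5 and 7 exceeded all other libraries, while animals 3, 4 and 6 lay among the 67NR values. A log2 fold change of 0.40 ± 0.31 (SE) did not pass (edgeR adjusted p = 0.390). Folr2, folate receptor beta, had 2129, 1740, 3439, 3289 and 3340 in 66cl4 and 1924, 1516, 2304, 2734 and 3383 in 67NR CD45+ cells, which overlapped. Its log2 fold change was 0.25 ± 0.23 (SE), with an edgeR adjusted p of 0.471.

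The receptor chain was level in CD45+ cells. Il4ra had 1683, 1233, 1753, 1606 and 1943 normalised counts in 66cl4 and 1400, 1361, 1529, 1867 and 2034 in 67NR. The groups overlapped, and the log2 fold change was 0.02 ± 0.14 (SE, edgeR adjusted p = 0.932). Its sign varied between settings, from -0.05 to 0.11. Stat6, the transcription factor, had 4321, 2992, 4074, 3037 and 3085 in 66cl4 and 2182, 2584, 2170, 2338 and 2773 in 67NR. The lowest 66cl4 library lay above the highest 67NR library. The log2 fold change was 0.55 ± 0.13 (SE) with an edgeR adjusted p of 0.0115, so the difference passed the p threshold and was too small to be called.

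**Figure D2:**
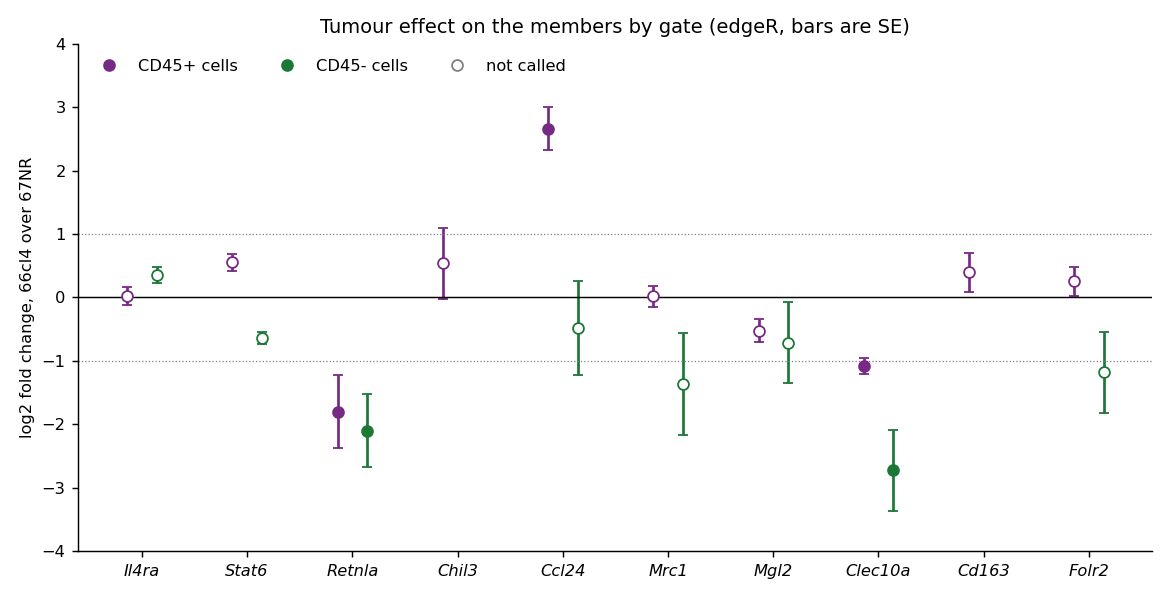
Log2 fold change of 66cl4 over 67NR for each of the 10 genes, in CD45+ cells (purple) and CD45- cells (green), with bars for the standard error of the edgeR fit over 5 against 5 libraries and dotted lines at -1 and 1. Filled points were called. Ccl24 lies at 2.67 in CD45+ cells and at -0.48 in CD45- cells, Stat6 has opposite signs in the gates, and Chil3 and Cd163 have no fitted value in CD45- cells.

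Per transcript length, the order of the genes differed between the tumours. In TPM, a count per transcript length that sums to the same total in each library, with the median length of the annotated transcripts, Ccl24 came first in 66cl4 CD45+ cells at 350.6 ± 148.4 (SD, n = 5). It was followed by Mrc1 at 323.7 ± 73.7, Retnla at 203.9 ± 110.6 and Folr2 at 191.8 ± 51.3, and these neighbours overlapped. Stat6 at 73.5, Mgl2 at 44.6 and Il4ra at 24.7 followed, without overlap from Folr2 down to Il4ra. Chil3 at 19.6, Clec10a at 15.2 and Cd163 at 9.38 came last, with overlapping neighbours. In 67NR CD45+ cells Retnla came first at 744.9 ± 595.0 TPM, ahead of Mrc1 at 312.8 ± 48.6 and Folr2 at 164.5 ± 60.8. Mgl2 at 64.2, Ccl24 at 56.5 and Stat6 at 49.8 overlapped one another in that order. Clec10a at 32.2, Il4ra at 24.5, Chil3 at 13.6 and Cd163 at 6.97 followed. The separate steps there were from Folr2 to Mgl2 and from Stat6 to Clec10a.

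The cytokines that induce this state were measured in the same CD45+ libraries. Of 7 genes in this list 6 passed the filter on low counts, and 1 rose and 3 fell, against 5.01% and 6.82% of all genes, with a median log2 fold change of -0.997 over the 6. Il33, an alarmin that acts on mast cells and type 2 lymphoid cells, fell from a mean of 290.8 normalised counts in 67NR to 30.6 in 66cl4 (log2 fold change -3.23 ± 0.45 SE, edgeR adjusted p = 0.000769). It was mainly a transcript of CD45- cells, lower in CD45+ than in CD45- cells in 10 of 10 animals, and its CD45- mean was also lower in 66cl4 (391.7 against 1578). The summed fibroblast markers of the CD45+ gate had a ratio of 0.481, and their part in the Il33 level was not tested. Il13 had 0, 0, 3.86, 14.7 and 3.38 normalised counts in 66cl4 and 6.24, 39.6, 24.4, 31.2 and 28.8 in 67NR. Il4 had 13.9, 8.60, 13.5, 4.21 and 3.38 in 66cl4 and 17.2, 25.3, 25.4, 20.4 and 16.46 in 67NR. Both interleukins thus rested on few counts in each library. In the CD45+ gate the summed mast cell and basophil markers had a ratio of 0.129 and the T cell markers 1.02. The part of these cells in the Il4 and Il13 levels was not tested. Il13 was called lower with a log2 fold change of -2.51 ± 0.75 (SE, edgeR adjusted p = 0.0333) and Il4 with -1.28 ± 0.40 (SE, adjusted p = 0.0400). Each of these calls was lost when single libraries were left out, in 8 of 10 fits for Il13 (66cl4 animals 3, 4, 5 and 7, and 67NR animals 4, 5, 6 and 7, with adjusted p-values of 0.0520 to 0.0794). For Il4 it was lost in 7 of 10 (66cl4 animals 4, 6 and 7, and 67NR animals 1, 4, 5 and 6, at 0.0521 to 0.0983). Csf1, the growth factor of macrophages, rose from a mean of 1101 to 2396 (log2 fold change 1.12 ± 0.27 SE, edgeR adjusted p = 0.0133). It too was higher in CD45- cells in 10 of 10 animals, where its mean was 10960 in 66cl4 against 3405 in 67NR. The summed epithelial markers of the CD45+ gate were 2.76 times as high in 66cl4. This sum includes Cdh1, which was higher in CD45+ than in CD45- cells in 10 of 10 animals. The part of epithelial cells in the Csf1 level was not tested. Its log2 fold change no longer exceeded 1 without 66cl4 animal 5 or without 67NR animal 7, where it was 0.95.

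Of the 11 other genes of the receptor and its signalling, 10 were tested, and 1 was called by the edgeR rule, a share near the 11.8% of all genes. Irs2, the adaptor that links the interleukin-4 receptor to PI3 kinase, rose from a mean of 736.7 to 1478 normalised counts (log2 fold change 1.02 ± 0.15 SE, edgeR adjusted p = 0.000791). Its value lies close to the fold threshold, and it dropped under it in 5 of 10 fits without a library (66cl4 animals 4 and 5, and 67NR animals 4, 6 and 7), with 0.90 as its lowest value. Socs1, a brake on cytokine signalling, had a log2 fold change of -0.81 ± 0.21 (SE, adjusted p = 0.0172), below the fold threshold. The median of the 10 was 0.09.

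Other genes that interleukin-4 induces in macrophages rose more often than they fell. Of 14 found and tested, 5 rose and 1 fell, against 5.01% and 6.82% of all genes, with a median log2 fold change of 0.66. These counts are a description, because the list was chosen with earlier results of these data known. The authors had already picked out Arg1 and Alox15 among the most changed genes of these CD45+ cells. Alox15, the lipoxygenase of resident and alternatively activated macrophages, rose from a mean of 30.1 to 1258 normalised counts (log2 fold change 5.38 ± 0.68 SE, edgeR adjusted p = 0.000532). Arg1, which splits arginine into ornithine and urea, had 12710, 5826, 20140, 18520 and 10690 in 66cl4 and 1114, 992.5, 137.2, 2474 and 135.8 in 67NR CD45+ cells. The groups did not overlap, and the log2 fold change was 3.81 ± 0.80 (SE, edgeR adjusted p = 0.00778). Slc7a2, a transporter of arginine, rose by 3.09 ± 0.43 (SE) on the log2 scale (edgeR adjusted p = 0.000776), while Pparg, a nuclear receptor of lipid metabolism, fell by 1.135 ± 0.24 (SE, adjusted p = 0.00651). Without 67NR animal 7 the log2 fold change of Pparg was -0.94 and it was not called. Egr2 and Tgm2 were the remaining genes that rose.

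Genes of the opposite, classical activation by interferon-gamma and bacterial products were mixed. Of 15 tested, 3 rose and 3 fell by the edgeR rule, against 5.01% and 6.82% of all genes, with a median log2 fold change of 0.06. The costimulatory ligand Cd80 rose by 2.19 ± 0.28, the prostaglandin synthase Ptgs2 by 1.70 ± 0.36 and the cytokine Il1b by 1.25 ± 0.32 on the log2 scale (SE, adjusted p = 0.000410, 0.00713 and 0.0162). The chemokines Ccl5, Cxcl9 and Cxcl10 had log2 fold changes of -2.34 ± 0.33, -1.97 ± 0.25 and -1.46 ± 0.17 (SE, adjusted p = 0.000725, 0.000332 and 0.000204). Nos2, the enzyme that competes with arginase for arginine, had 0.06 ± 0.76 (SE, adjusted p = 0.972). Without 66cl4 animals 5 and 6 the log2 fold change of Il1b was 0.88 and its call was lost (edgeR adjusted p = 0.107), as it was with all 20 libraries in the fit (adjusted p = 0.0665).

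**Figure D3:**
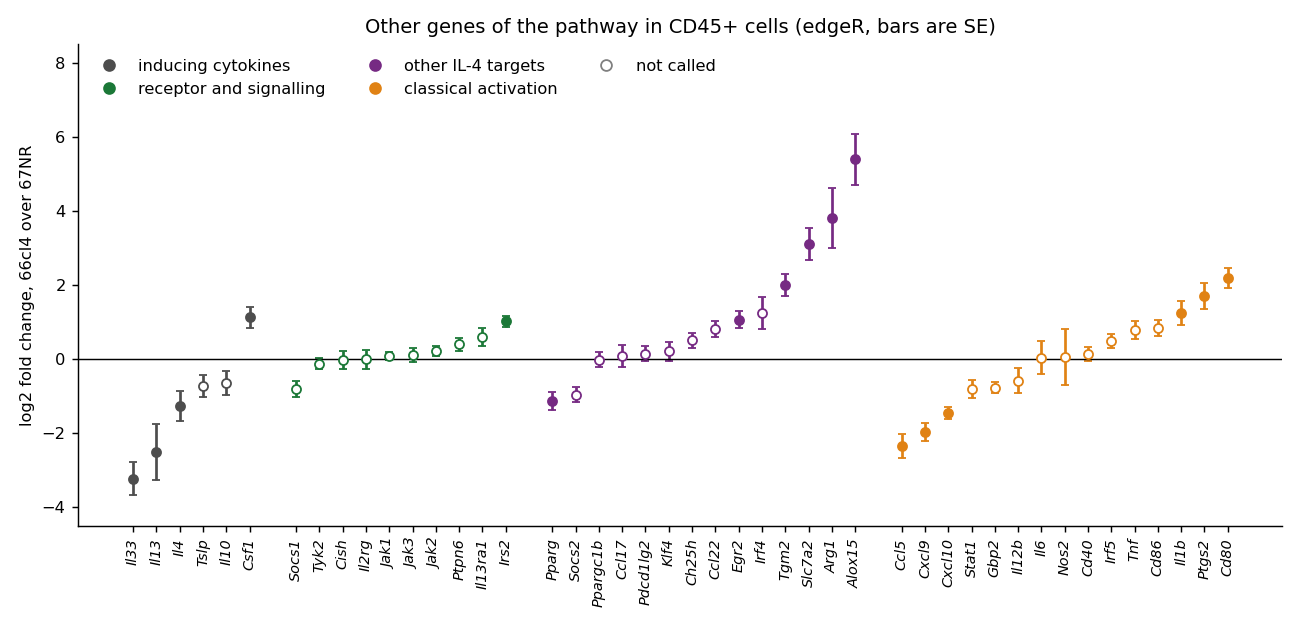
Log2 fold change of 66cl4 over 67NR in CD45+ cells for the tested genes of 4 lists, with bars for the standard error of the edgeR fit over 5 against 5 libraries and filled points for called genes. Il33, Il13 and Il4 lie below 0 while Alox15, Arg1 and Slc7a2 lie above 3, and the classical genes fall on both sides.

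Paralogs of the 10 genes were looked at because they share sequence or function with them. Of 12 paralogs 6 passed the filter, and 2 rose and 1 fell, against the same 5.01% and 6.82%. Retnlg, the resistin-like gene of neutrophils, had 8792, 4479, 7086, 4649 and 1833 normalised counts in 66cl4 and 3017, 889.2, 685.0, 451.7 and 273.7 in 67NR CD45+ cells. Its log2 fold change was 2.32 ± 0.67 (SE, edgeR adjusted p = 0.0311), opposite in sign to that of Retnla. This call was lost in 5 of 10 fits without a library (66cl4 animals 3 and 5, and 67NR animals 4, 5 and 6), at adjusted p-values of 0.0538 to 0.0792. Chil1 rose by 1.91 ± 0.49 and Mrc2, the collagen receptor of fibroblasts, had -2.23 ± 0.54 on the log2 scale (SE, edgeR adjusted p = 0.0182 and 0.0148). Stat3, Stat5a and Stat5b had log2 fold changes of 0.43 ± 0.17, 0.30 ± 0.14 and 0.20 ± 0.09 (SE), and none of these 3 relatives of Stat6 passed. Chil4, Chia1, Retn, Retnlb, Folr1 and Ccl11 had too few counts in CD45+ cells to be tested.

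The makeup of the CD45+ libraries differed between the tumours, and these values belong beside the results above. Summed marker levels were compared by two-sided exact permutation tests between the 5 and 5 libraries, with p-values adjusted over 11 lists. The summed macrophage identity markers were lower in 66cl4, at 33980 to 54010 normalised counts against 54440 to 100300 (ratio 0.681, exact permutation adjusted p = 0.0175). Among these 8 genes the fitted changes were unequal, from -1.11 ± 0.16 (SE) for Adgre1, which encodes F4/80 and was the called gene, to 0.88 ± 0.15 for Mertk on the log2 scale. The resident macrophage markers (ratio 0.556), the dendritic cell markers (0.579) and the mast cell and basophil markers (0.129) were lower without overlap, each with an exact permutation adjusted p of 0.0175. The epithelial markers were higher without overlap (2.76, exact adjusted p = 0.0175) and the neutrophil markers were higher with overlap (3.83, exact adjusted p = 0.0291). The neutrophil result was lost without 67NR animal 4, 5, 6 or 7, at exact permutation adjusted p-values of 0.0624 to 0.0728. In the epithelial list Cdh1 was higher in CD45+ than in CD45- cells in 10 of 10 animals and Epcam in 5 of 10. Krt8, Krt18 and Krt14 were so in 0 of 10. The mean epithelial sum was 277.4 in CD45+ and 191.4 in CD45- cells of 67NR, against 766.7 and 6550 in 66cl4. This sum is therefore not a measure of epithelial cells alone. Monocyte, eosinophil, T cell, fibroblast and endothelial markers did not pass, with ratios of 0.941, 0.646, 1.02, 0.481 and 0.778 and exact permutation adjusted p-values of 0.237 to 0.929. Within these lists the genes were unequal too. Of 5 monocyte genes 3 were called lower and 1 higher (median log2 fold change -1.06), and of 3 eosinophil genes tested 2 were called higher (median 1.29) although their sum was lower. Of the fibroblast and endothelial genes tested 1 each was called lower, Dcn and Kdr. Kdr and Pecam1 were each higher in CD45+ than in CD45- cells in 8 of 10 animals, and Cdh5, Tek and Emcn in 0 of 10. The mean endothelial sum was 1137 in CD45+ and 724.3 in CD45- cells of 66cl4, against 1462 and 2264 in 67NR. Kdr and this sum are therefore not measures of endothelial cells alone. The eosinophil granule gene Epx had at most 2 counts in any 66cl4 CD45+ library and Prg2 at most 3. The basophil protease gene Prss34 had at most 3 in any CD45+ library. The mast cell gene Cpa3, which gives most of its list's sum, ranged over 450.5 to 1286 normalised counts among 66cl4 and over 5432 to 8397 among 67NR CD45+ libraries. The part of these cells in the levels of the 10 genes was not tested.

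**Figure D4:**
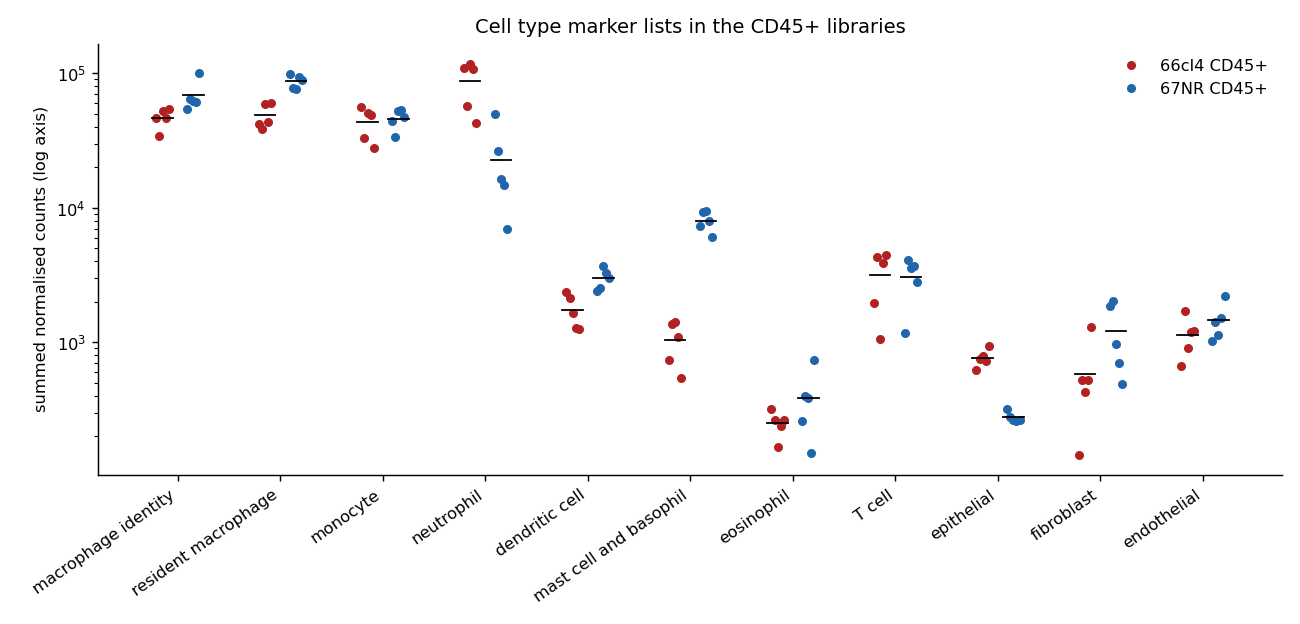
Summed normalised counts of 11 lists of cell type markers in the CD45+ libraries, on a log axis, with a point for each library and a black line at the mean of the 5 libraries of a group. Macrophage identity markers lie lower in 66cl4 (33980 to 54010) than in 67NR (54440 to 100300), and neutrophil markers lie mostly higher in 66cl4.

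Scaling each library by its macrophage identity genes in place of all genes puts the 10 genes on the scale of macrophage marker RNA. This scale moved the comparison by 0.50 on the log2 scale in favour of 66cl4, and the median of all genes tested then lay at 0.53. With it 2 of the 10 genes were called by the edgeR rule, both higher, against 18.1% of all genes that were called, 14.2% higher and 3.9% lower. Ccl24 was higher by 3.13 ± 0.33 (SE, edgeR adjusted p = 5.39e-05) and Stat6 by 1.07 ± 0.19 (SE, adjusted p = 0.00113). Without 66cl4 animal 3 the log2 fold change of Stat6 was 0.98 (adjusted p = 0.00471), and it was not called. Retnla had a log2 fold change of -1.26 ± 0.59 (SE) and was not called (adjusted p = 0.102), and without 66cl4 animal 6 it was called, at -1.67 (adjusted p = 0.0489). Clec10a had -0.58 ± 0.19 (SE, adjusted p = 0.0250) and Mgl2 -0.02 ± 0.24 (SE, adjusted p = 0.963), a value whose sign depended on the setting. Folr2, Cd163, Il4ra and Mrc1 had 0.75, 0.83, 0.52 and 0.50 (adjusted p = 0.00839, 0.0260, 0.0177 and 0.0648), all below the fold threshold, and Chil3 had 0.94 ± 0.60 (SE, adjusted p = 0.212). These 4 values stand beside the median of 0.53 of all genes on this scale. When C1qa, C1qb and C1qc were left out of the scaling, Ccl24 remained called, Clec10a was called lower (-1.06, adjusted p = 0.00217) and Stat6 was no longer called (0.58, adjusted p = 0.0325). Mrc1, Il4ra, Cd163 and Folr2 were then at 0.035, 0.060, 0.390 and 0.308, near their values with all genes as the scale. The shift of this scale thus rested largely on these 3 complement genes.

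**Figure D5:**
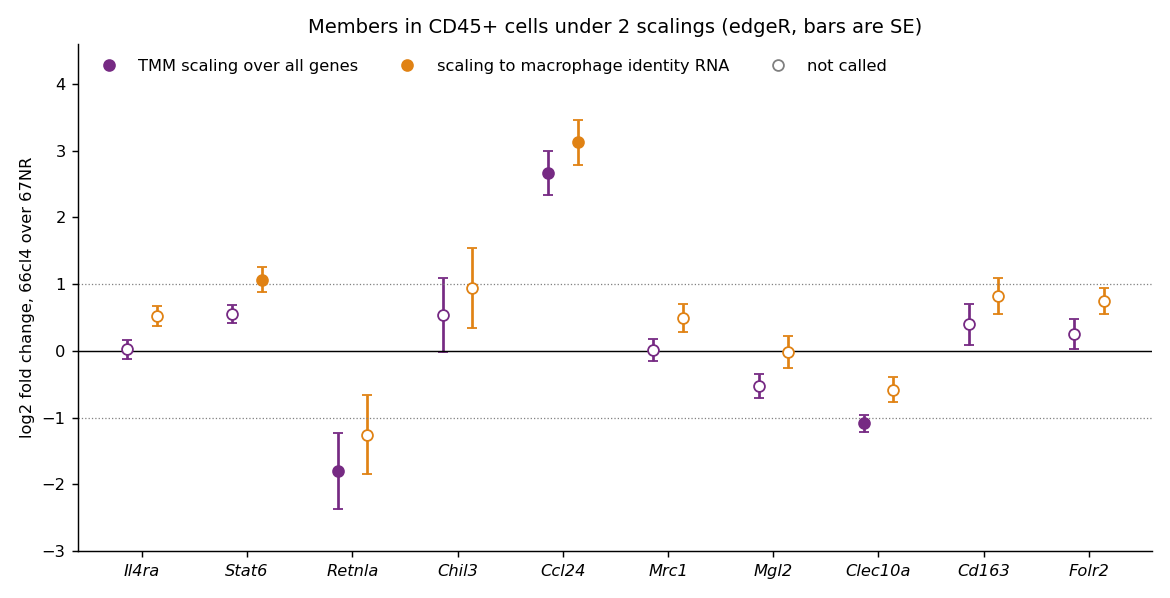
Log2 fold change of 66cl4 over 67NR in CD45+ cells with libraries scaled over all genes (purple) and to their macrophage identity genes (orange), with bars for the standard error of the edgeR fit over 5 against 5 libraries and filled points for called genes. Ccl24 is called under both scalings at 2.67 and 3.13, Retnla and Clec10a under the first and Stat6 under the second.

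In CD45- cells the same tumour comparison met far lower levels for 8 of the genes. Of the 10, 8 passed the filter and 2 of these were called by the edgeR rule, both lower, against 32.2% of the 14844 genes tested that were called, 13.2% higher and 18.9% lower. Retnla had normalised counts of 3.98, 15.6, 24.1, 10.6 and 20.96 in 66cl4 and 7.90, 85.5, 115.0, 56.3 and 76.7 in 67NR CD45- cells. All 67NR libraries but that of animal 1 lay above the 66cl4 values, and the log2 fold change was -2.10 ± 0.57 (SE, edgeR adjusted p = 0.00608). Clec10a had 0, 0.624, 7.49, 4.25 and 3.99 against 10.5, 47.3, 27.2, 10.2 and 19.4, without overlap, and a fitted log2 fold change of -2.73 ± 0.63 (SE, adjusted p = 0.00174). With 0 to 9 counts in a 66cl4 library, Clec10a passed the filter through the 67NR libraries, and the size of its fold is uncertain. The Retnla levels rest on 3 to 131 counts in a library. Ptprc also stood lower in the same gate, at 10.6 to 160.7 in 66cl4 against 144.9 to 473.4 normalised counts in 67NR. The summed macrophage identity markers were at 122.1 to 1268 against 1035 to 3407 (ratio 0.297, exact permutation adjusted p = 0.0374), a result lost without 66cl4 animal 3, 4, 6 or 7 or 67NR animal 4, at 0.0611 to 0.0873. The part of leukocytes in the CD45- gate in these 2 results was not tested.

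The 66cl4 CD45- library of animal 5 stood apart for several of the genes. It had 678.4 normalised counts of Mrc1, where the other 66cl4 CD45- libraries had 39.8 to 229.6, and it was highest for Folr2, Cd163, Mgl2 and Ccl24 as well. With it, Mrc1, Folr2, Mgl2 and Ccl24 had log2 fold changes of -1.37 ± 0.81, -1.18 ± 0.64, -0.71 ± 0.63 and -0.48 ± 0.74 (SE) and were not called. Without it the edgeR fit gave -2.40, -2.18, -1.60 and -1.58 (adjusted p = 0.0119, 0.00106, 0.0345 and 0.0391), and 6 of the genes were called lower. The other 66cl4 CD45- libraries held 1 to 10 counts of Mgl2, 3 to 24 of Ccl24 and 2 to 30 of Folr2. The sizes of their folds are therefore uncertain. Chil3 and Cd163 did not pass the filter. Their means were 1.01 and 10.9 normalised counts in 66cl4 against 4.05 and 12.9 in 67NR (two-sided exact permutation p = 0.198 and 0.825).

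The receptor and the transcription factor were abundant in CD45- cells too. Stat6 had 1341, 1277, 1222, 1254 and 1125 normalised counts in 66cl4 and 1692, 1876, 2291, 2039 and 2043 in 67NR CD45- cells, without overlap. In this gate 52.9% of all genes tested did not overlap. Its log2 fold change was -0.65 ± 0.09 (SE) with an edgeR adjusted p of 2.78e-05, below the fold threshold and opposite in sign to that in CD45+ cells. Il4ra had 285.4, 260.0, 350.5, 287.9 and 271.5 against 173.7, 249.1, 238.8, 260.2 and 244.4. The groups touched at 260.0 and 260.2, and the log2 fold change was 0.35 ± 0.12 (SE, edgeR adjusted p = 0.0216), also too small to be called.

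Between the gates, the genes lay mostly in the CD45+ cells. By the edgeR rule 10 of 10 were higher in CD45+ than in CD45- cells of 66cl4 tumours, against 23.9% of the 14916 genes tested that were higher and 44.4% that were called in either direction. In 67NR tumours 9 of 10 were higher, against 20.2% of 15063 higher and 39.8% called. These counts are a description, because genes with few counts in CD45- cells passed the filter through the CD45+ libraries. Chil3 had 0 to 2 counts and Clec10a 0 to 9 in a 66cl4 CD45- library, around the floor of 3 counts, and no fold is given for them there. Their CD45+ levels in 66cl4 were 152.1 to 610.4 and 239.9 to 315.3 normalised counts. In 66cl4 the log2 fold change was 7.64 ± 0.75 (SE) for Ccl24, 6.86 ± 0.45 for Mgl2 and 6.65 ± 0.56 for Retnla. It was 5.51 to 6.59 for Mrc1, Folr2 and Cd163. CD45- libraries of 66cl4 held 3 to 75 counts of Ccl24, 1 to 25 of Mgl2 and 2 to 44 of Cd163. They held 3 to 29 of Retnla and 2 to 121 of Folr2. The fold sizes of these genes are therefore uncertain. Chil3 had 0 to 13 counts in a 67NR CD45- library, with 2 of 5 at 0. Mgl2 had 3 to 29 counts there and Cd163 4 to 28. In 67NR the log2 fold change was 6.68 ± 0.35 (SE) for Mgl2 and 6.39 ± 0.72 for Retnla, and 4.51 to 5.20 for Mrc1, Clec10a, Folr2, Cd163 and Ccl24. Il4ra had 2.47 ± 0.14 in 66cl4 and 2.81 ± 0.14 in 67NR, and Stat6 had 1.46 ± 0.12 and 0.27 ± 0.11 (SE). The CD45- level was a median of 1.08% of the CD45+ level over the 10 genes in 66cl4 and 3.28% in 67NR. For the macrophage identity genes these medians were 1.18% and 2.46%. For Stat6 the shares were 35.5% and 82.5%, and for Il4ra 17.7% and 14.2%. Within animals, Stat6 was higher in CD45+ than in CD45- cells in 9 of 10, and each of the other 9 genes in 10 of 10. For all genes tested, 61.4% in 66cl4 and 55.5% in 67NR had gates that did not overlap.

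An interaction term in a fit of the 20 libraries asked whether the tumours differed unequally in the gates. It passed an adjusted p-value of 0.05 for 3 of the 10 genes, against 43.1% of the 16453 genes tested, and 21.9% of all genes were higher in this sense. The difference, CD45+ minus CD45-, was 3.16 ± 0.77 (SE, edgeR adjusted p = 0.00284) for Ccl24, 1.65 ± 0.60 (SE, adjusted p = 0.0321) for Clec10a and 1.20 ± 0.16 (SE, adjusted p = 6.39e-06) for Stat6. For Stat6 the gates moved in opposite directions, while Clec10a was called lower in both. The size of its interaction rests on the few Clec10a counts of the 66cl4 CD45- libraries. These libraries held 3 to 75 counts of Ccl24, so the size of the Ccl24 interaction is uncertain too. Libraries of both gates from the same animal form pairs. With the animal as a block the value of Clec10a was 1.55 and it did not pass (edgeR adjusted p = 0.0534), while Mrc1 (1.86, adjusted p = 0.0467) and Folr2 (1.82, adjusted p = 0.0245) did. The Clec10a call was also lost in 7 of 20 fits without a library (66cl4 CD45- animals 3 and 4, 66cl4 CD45+ animals 5 and 7, 67NR CD45- animals 4 and 5, and 67NR CD45+ animal 1), at 1.10 to 1.57 and adjusted p-values of 0.0521 to 0.112. Without the 66cl4 CD45- library of animal 5, 6 of the genes passed. Mrc1 was then at 2.34, Folr2 at 2.36 and Cd163 at 1.95 (edgeR adjusted p = 0.00403, 0.00103 and 0.0373). The remaining 66cl4 CD45- libraries held 2 to 8 counts of Cd163 and 2 to 30 of Folr2, so their sizes are uncertain. Il4ra passed without 66cl4 CD45+ animal 7, at -0.49 (adjusted p = 0.0445).

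Genes with the most similar pattern were sought among the 16438 other genes that passed the filter over the 20 libraries. Likeness is the mean absolute difference between log2(normalised count + 1) profiles after centring each gene on its mean, so a smaller value is closer, and the contrast between the gates weighs most in it. Ccl24 lay closest to 2 other chemokines, Ccl6 (0.362) and Ccl9 (0.414), and to the complement receptor C5ar1 (0.489). Chil3 lay closest to Tarm1 (0.674), to the neutrophil surface gene Cd177 (0.680) and to the cytokine Osm (0.730). Retnla lay closest to Clec4b1 (0.619), to Plac8 (0.621) and to BC147527 (0.627). Clec10a lay closest to the complement gene C1qb (0.384), to Cd200r4 (0.388) and to Naaa (0.411), and Mgl2 to Gm6377 (0.360), to the protease gene Ctss (0.381) and to Ly86 (0.383). Mrc1 lay closest to Gatm (0.261), to the complement receptor C3ar1 (0.261) and to the transcription factor Maf (0.270). Cd163 lay closest to Tnfsf14 (0.500), Mertk (0.535) and F13a1 (0.538), and Folr2 to Nxpe5 (0.302), Ccl12 (0.353) and Tm6sf1 (0.355). Il4ra lay closest to Actr3 (0.165), Cmtm7 (0.192) and Stx7 (0.192), and Stat6 to Atp6ap1 (0.110), Clk3 (0.115) and Wwp2 (0.123). Among the 10 genes themselves the closest pair was Mrc1 with Folr2, at 0.423. Chil3 was the farthest from the rest, with 1.06 to its nearest, Folr2.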

How the data were processed

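Libraries of both gates were made with the SENSE mRNA-Seq kit. The authors trimmed reads with fastp, quantified transcripts with Salmon 1.3.0 and summed them to genes with tximport, and they deposited a table of estimated counts per gene (expected counts, 15.1% to 18% of values per library not whole). The submitters' processing notes give bcl2fastq 2.2.20. The methods name the software of the sequencing instrument for base calling, and bcl2fastq under another version number for writing the read files. The methods name a human genome build, while the identifiers are of mouse genes, so no gene position is taken from them. Of 52783 identifiers 51492 had a symbol.

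Counts were rounded to whole numbers and tested with edgeR 4.0.16 in R 4.3.3 (TMM scaling, filterByExpr at 10 counts and 15 in total, robust quasi-likelihood fit, Benjamini-Hochberg adjustment over all genes tested). Calls required both an adjusted p-value under 0.05 and a log2 fold change beyond 1 either way, and for the interaction the former alone. The fits were tested on simulated data. Normalised counts are counts divided by DESeq2 1.42.0 size factors over the 20 libraries, and a floor of 3 counts corresponds to 1.87 to 4.68 of them, counting error only. Reads were taken as deposited, and Salmon divides reads that fit several genes. Figures were drawn with Python 3.11.15 and matplotlib 3.10.9.

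Samples were grouped by their titles. The members and all gene lists were chosen with earlier results of these data known. Named genes were all 10 members, the 3 called genes with the largest change in each direction per list with a mean of at least 10 normalised counts in the higher group, Arg1, the paralogs, the macrophage markers and the 3 nearest genes by pattern. Socs1, Egr2, Tgm2, Nos2, Cpa3, Dcn and Kdr were named in addition after their values were seen. Ear11 was not matched in the table. The gates of 1 animal are paired by design, and the deviations of their libraries from the group means correlated at -0.02 to 0.38 over 10 animals. Alternatives were DESeq2, RLE scaling, other filters, a single fit of all 20 libraries, a replicate block, leaving out each library, leaving out 66cl4 animals 5 and 6, and other macrophage scalings. Replicate libraries differed by more than counting noise (chi-square per degree of freedom of 12.3 or more), and none was a duplicate.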

Additional observations from a re-analysis of the deposited data

Results flagged for a closer look

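Among groups of 5 libraries, 13 of 84 held a library far from the other 4, where about 4.2 would be flagged by chance. In CD45+ cells, Mgl2 stood at 2013 normalised counts in 67NR animal 5 (others 1068 to 1298), the summed macrophage identity markers at 100300 in 67NR animal 7 (others 54440 to 64790) and the summed epithelial markers at 320.0 in 67NR animal 1 (others 261.2 to 278.1).

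In CD45- cells, 66cl4 animal 5 stood apart for Cd163 at 36.6 normalised counts (others 1.25 to 7.99), Folr2 at 100.7 (others 2.66 to 30.0) and the summed resident macrophage markers at 5001 (others 2631 to 3187). In 67NR animal 4 the summed macrophage identity markers reached 3407 (others 1035 to 1446), the dendritic cell markers 111.0 (others 35.8 to 54.4) and the T cell markers 96.8 (others 25.6 to 39.1). The T cell markers reached 37.9 in 66cl4 animal 7 (others 12.5 to 18.6) and the epithelial markers 378.9 in 67NR animal 6 (others 120.0 to 165.0). Il4ra was low in 67NR animal 1 at 173.7 (others 238.8 to 260.2), as were the neutrophil markers in 67NR animal 7 at 650.4 (others 848.2 to 916.8).

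The tumour effect differed between the gates, by the interaction test of edgeR, for Clec10a (1.65 on the log2 scale, CD45+ minus CD45-), Ccl24 (3.16) and Stat6 (1.20). In the gates themselves the values were -1.09 and -2.73 for Clec10a, 2.67 and -0.48 for Ccl24, and 0.55 and -0.65 for Stat6. The 66cl4 CD45- libraries held 0 to 9 counts of Clec10a and 3 to 75 of Ccl24, so the sizes of these interactions are uncertain. With the animal as a block, which pairs the gates, Clec10a did not pass (1.55, adjusted p = 0.0534), while Mrc1 (adjusted p = 0.0467) and Folr2 (adjusted p = 0.0245) did.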

How the results depend on the processing

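The higher Ccl24 and the lower Clec10a of 66cl4 CD45+ cells were called in 17 of 17 other settings, and the member count of 3 there stayed between 2 and 3. The macrophage scale is not among these settings, and on it Ccl24 was called (3.13) while Clec10a was not (-0.58). Retnla lost its call in 10 of 17, among them the fit with no filter (adjusted p = 0.130), the replicate block (-1.56, adjusted p = 0.279) and the fit without 66cl4 animals 5 and 6 (-2.28, adjusted p = 0.0514). Tumours share only replicate numbers, whose libraries correlated at -0.21 to 0.14, so that block does not pair them. The gate counts of 10 and 9 members held in all settings run.

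The count of 2 members in CD45- cells was 4 with all 20 libraries in the fit and 4 without 66cl4 animals 5 and 6, and 2 to 6 when single libraries were left out. The interaction count of 3 was 5 without those animals and 2 to 6 without single libraries. Per macrophage marker RNA, the 2 called members became 1 to 3 without single libraries, and the 2663 called among all genes became 1351 when C1qa, C1qb and C1qc were left out of the scaling. With the replicate block Chil3 (1.19) and Cd163 (1.09) were called on that scale and Stat6 (0.998) was not. The marker lists that differed fell from 6 and 9 of 11 to 0 and 0 without 66cl4 animals 5 and 6, where 3 libraries stood against 5 and the exact permutation adjusted p-values were 0.0655 or more, and all 11 kept their direction in both gates. Without single libraries these counts were 5 to 6 and 5 to 9.

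Values near 0 changed sign. Il4ra in CD45+ cells (0.02) was -0.028 with the replicate block, -0.012 without 66cl4 animals 5 and 6 and -0.046 to 0.111 without single libraries. Mrc1 (0.02) ranged from -0.064 to 0.096 without single libraries. The interactions of Retnla and Mgl2 ranged from -0.22 to 0.87 and from -0.20 to 1.01. Mgl2 per macrophage marker RNA was 0.061 with the block and -0.14 to 0.22 without single libraries. The log2 ratios of the summed T cell and monocyte markers in CD45+ cells ranged from -0.17 to 0.26 and from -0.200 to 0.0365. Among other CD45+ genes, the replicate block ended the calls of Arg1 (4.69, adjusted p = 0.0914), Mrc2 (adjusted p = 0.162) and Il13 (adjusted p = 0.0513). Leaving out 66cl4 animals 5 and 6 ended those of Csf1, Il4, Irs2, Il1b, Retnlg, Chil1 and Mrc2 (adjusted p up to 0.107). The causes were not tested. With all 20 libraries in the fit Il4 (adjusted p = 0.0847) and Il1b (adjusted p = 0.0665) lost their calls, and with no filter Il13, Il4 and Retnlg did (adjusted p = 0.0510, 0.0676 and 0.0847). Over all alternatives, single values kept sign and call 1687 times, gained a call 24 times, lost one 129 times and changed sign 28 times.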
